A study of Mus musculus with 15 samples.

Results

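A set of 10 genes switched on by the transcription factor p53 were followed across 15 arrays of mouse cultures. All were labelled by helper T cell lineage (Th1, Th9 or Th17), and 3 of the arrays were labelled APC alone. The genes were Cdkn1a, Ccng1, Mdm2, Bbc3, Pmaip1, Perp, Aen, Phlda3, Trp53inp1 and Bax, chosen by symbol from the platform annotation. Of the 10, 9 were paired with a probe set, among 18194 genes on the array, and all 9 were tested among 15498 genes. Bax, which forms pores in the mitochondrial outer membrane, and Trp53, which encodes p53 itself, had no probe set under their symbol in that annotation and were not analysed here.

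In the study, T cells that recognise hen egg lysozyme (HEL) were activated in 2 ways while being driven towards the Th1, Th9 or Th17 lineage, and RNA was taken at day 4. The T cells came from 3A9 mice, whose CD4 cells carry a transgenic receptor for HEL, and were sorted with the clonotypic antibody 1G12. In the activation labelled PBAB, the plate was coated with antibodies to CD28 (10 µg/ml) and CD3 (1 µg/ml). In the activation labelled HA, syngeneic wild type splenocytes irradiated with 30 Gy presented HEL, of which Th1 and Th17 cultures got 2 µg/ml and Th9 cultures 1 µg/ml, and the labels mention no removal of these cells before RNA was taken. The last group of each lineage is labelled APC alone, and what it held is not stated. To the Th1 cultures IL-12 (10 ng/ml) was added with an antibody to IL-4 (10 µg/ml), and to the Th9 cultures TGF-beta (1 ng/ml) with IL-4 (10 ng/ml). The Th17 mixture was IL-1alpha (5 ng/ml), IL-6 (10 ng/ml) and TGF-beta (3 ng/ml), together with antibodies to IL-12 and IL-4 (both 10 µg/ml) and to IFN-gamma (20 µg/ml). Each lineage had 2 arrays for PBAB, 2 for HA and 1 for APC alone. The labels call the replicates biological without naming animals or cultures, so that the p-values here speak only of the spread among these samples, which may be technical.

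The protein p53 is a stress-responsive transcription factor, stabilised after DNA damage and other insults, that binds paired half-sites of a loose sequence in and near its target genes. Its targets halt the cell cycle through the CDK inhibitor p21, the product of Cdkn1a. Others kill cells through BH3-only proteins such as PUMA (Bbc3) and NOXA (Pmaip1), which act on the BCL2 family at the mitochondrion. Mdm2 closes a feedback loop, since it is the ubiquitin ligase that marks p53 for destruction. In T cells this network is best known from thymocytes, which die by a p53-dependent route after irradiation.

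Promoter sequences of 7 of the 10 genes were available from RefSeq (GRCm38.p6), and stretches of 4 are shown because they carry the sequence feature that several of the genes share. The promoter was taken as 250 bases before to 50 bases after each annotated start, which gave 11 promoters for these 7 genes. The published p53 half-site decamer, a palindromic motif searched without mismatch on both strands and with no other motif searched, was found in 6 of the 11 promoters. These belonged to Cdkn1a, Ccng1, Mdm2, Aen and Bax, with 2 overlapping promoters for Aen. Over all mouse promoters of the same length, 8.36% of 32851 held it. A match is a description of the letters and no evidence of binding. Perp, Trp53inp1 and Pmaip1 are named only. The decamers are in capitals in the following stretches, written 5′ to 3′ on the strand of the gene.
Cdkn1a: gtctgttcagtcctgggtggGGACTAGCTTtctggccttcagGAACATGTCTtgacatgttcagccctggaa
Ccng1: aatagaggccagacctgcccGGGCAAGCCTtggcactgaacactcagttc
Mdm2: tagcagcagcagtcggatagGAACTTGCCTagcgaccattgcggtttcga
Aen: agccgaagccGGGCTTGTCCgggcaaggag

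The Cdkn1a stretch lies at chr17:29090886-29090957 on the plus strand, with its 2 decamers beginning 73 and 51 bases before the first of its annotated starts. The promoter of its other annotated start, further downstream, held no match. The Ccng1 stretch lies at chr11:40755442-40755491 on the minus strand and its decamer begins 185 bases before the start. The Mdm2 stretch lies at chr10:117710915-117710964 on the minus strand, with the decamer 186 bases before the start. The Aen stretch lies at chr7:78895927-78895956 on the plus strand, 121 bases before the second of its annotated starts and within the transcript from the first. Of the measured members that held it, Cdkn1a and Aen passed the test between the activations described next and Ccng1 and Mdm2 did not. Bbc3 and Phlda3, with no match in these windows, passed that test.

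All values that follow are log2 expression values deposited by the authors, so that a difference of 1 is a doubling, and differences are PBAB minus HA with their standard error (SE) unless another pair is named. A gene is called when its Benjamini-Hochberg adjusted p, from limma over all 15498 genes, is under 0.05. Averaged over the 3 lineages, 6 of the 9 measured p53 targets rose in PBAB relative to HA: Perp, Bbc3, Cdkn1a, Aen, Phlda3 and Trp53inp1. None fell, and at an unadjusted p under 0.05 there were also 0 lower in limma. In the same comparison 13.2% of all genes were called higher and 17.3% lower. The median difference of the 9 genes was 0.54, against 0.02 for all genes tested. Bbc3 alone among them had all 6 PBAB arrays above all 6 HA arrays, as did 4.65% of all genes.

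Calls were also made within each lineage. In Th1 cultures 3 of the 9 rose (Perp, Bbc3 and Aen), where 5.22% of all genes were higher and 9.4% lower. In Th9 cultures 6 rose (Bbc3, Pmaip1, Perp, Cdkn1a, Aen and Trp53inp1), where 7.39% of all genes were higher and 6.32% lower. In Th17 cultures 3 rose (Cdkn1a, Bbc3 and Perp), where 6.66% of all genes were higher and 10.4% lower. No member was called lower in any lineage, nor did any reach an unadjusted p under 0.05 in that direction. Median differences of the 9 were 0.18 in Th1, 1.14 in Th9 and 0.41 in Th17 cultures, against 0.03, 0.01 and -0.00 for all genes. Only Bbc3 and Perp were called in all 3 lineages.

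**Figure D1:**
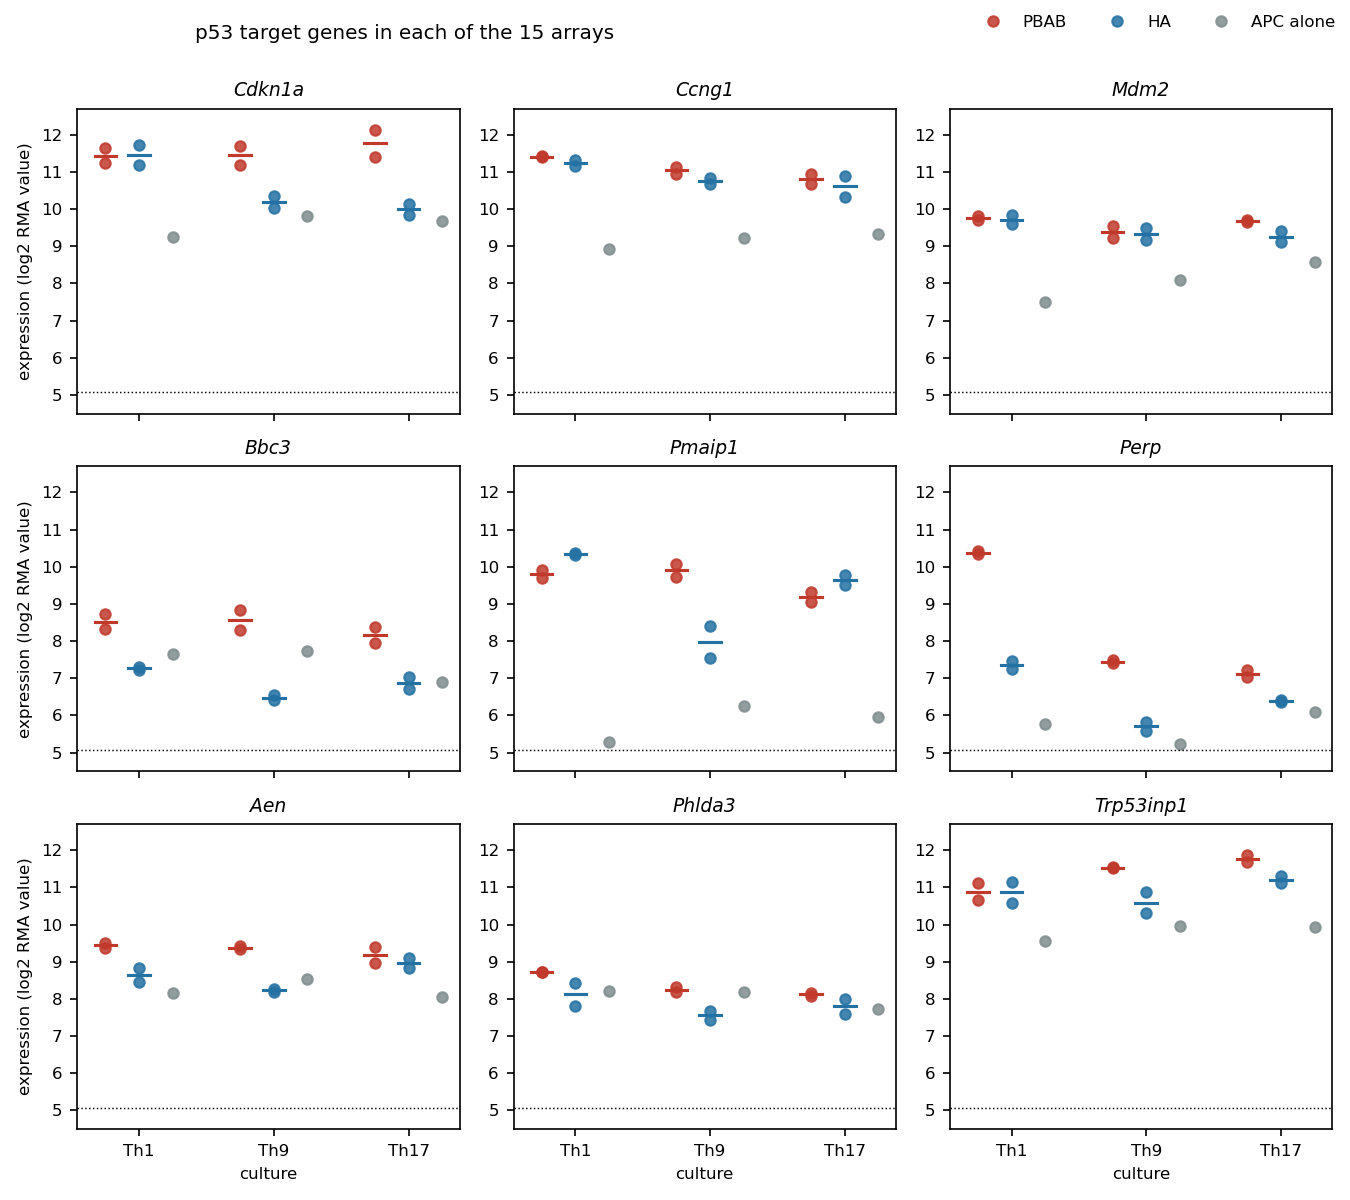
Expression of the 9 measured p53 targets in each of the 15 arrays (y axis, log2 RMA value), by culture (x axis), with PBAB in red, HA in blue and APC alone in grey. Each point is 1 array, bars are means of 2 arrays and the dotted line is the level of 5.07 used as the filter on low values. The Perp points of Th1 cultures under PBAB, at 10.33 and 10.41, stand above every other Perp array, and the Bbc3 points under PBAB stand above those under HA in each culture.

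**Figure D2:**
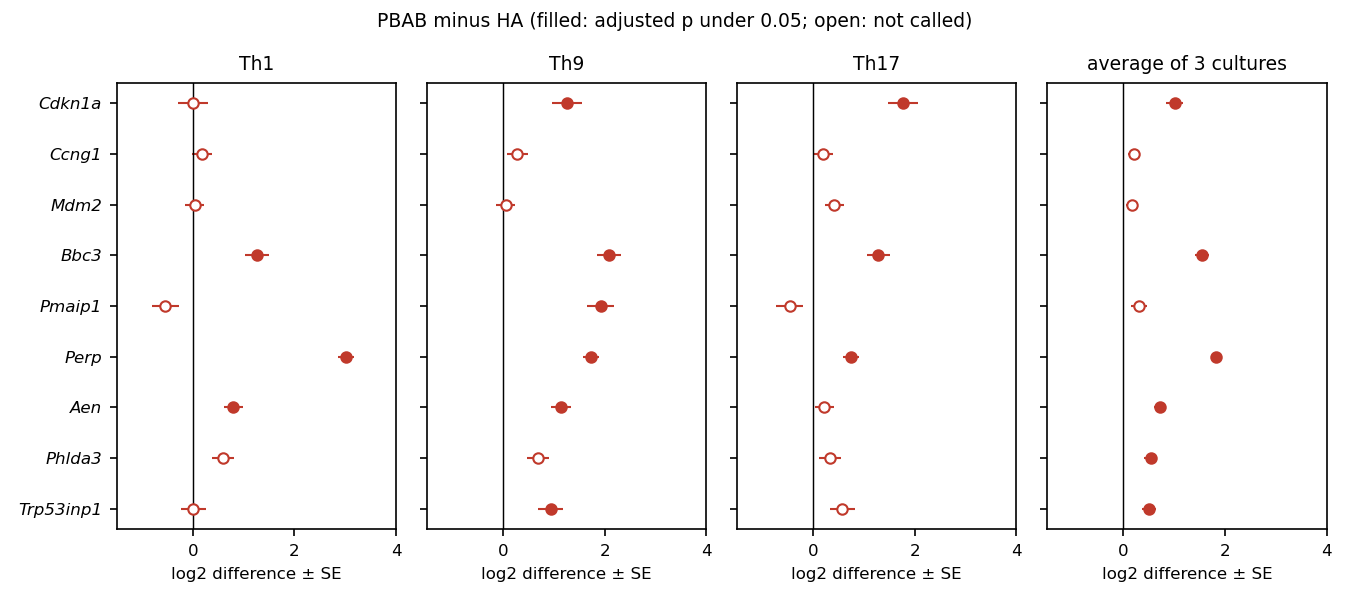
Difference between PBAB and HA for each gene (x axis, log2 difference with its SE as bars) in Th1, Th9 and Th17 cultures and averaged over them, with filled points called at an adjusted p under 0.05. Bbc3 and Perp are filled in all 4 panels, Cdkn1a is at -0.00 in Th1 and 1.77 in Th17 cultures, and Pmaip1 is at 1.92 in Th9 and below 0 in the other 2 cultures.

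Among the genes of cell cycle arrest and feedback, Cdkn1a separated the activations in Th9 and Th17 but not in Th1 cultures. In Th17 cultures Cdkn1a stood at 11.40 and 12.12 under PBAB, against 9.85 and 10.14 under HA and 9.66 in APC alone. In Th9 cultures Cdkn1a stood at 11.18 and 11.70 under PBAB, against 10.35 and 10.03 under HA and 9.81 in APC alone. In Th1 cultures Cdkn1a stood at 11.23 and 11.64 under PBAB, against 11.71 and 11.17 under HA and 9.24 in APC alone. Thus in this probe set the PBAB arrays were high in all lineages, while the HA arrays were high in Th1 and lower in Th9 and Th17 cultures. The difference was 1.77 ± 0.30 in Th17 (3.41-fold, adjusted p = 0.00284), 1.26 ± 0.30 in Th9 (adjusted p = 0.0183) and -0.00 ± 0.30 in Th1 cultures (adjusted p = 0.997). Averaged over lineages it was 1.01 ± 0.17 (2.01-fold, adjusted p = 0.00119). The Th9 call was lost without the second Th9 PBAB array (1.00, adjusted p = 0.13) or the second Th9 HA array (1.10, adjusted p = 0.116). A second Cdkn1a probe set gave 1.21 in Th9 cultures (adjusted p = 0.169) and 1.01 in the average (adjusted p = 0.0255). There the Th1 HA arrays lay far apart, at 12.07 and 10.32, and overlapped the Th9 HA arrays at 10.80 and 9.56.

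Cyclin G1, encoded by Ccng1, recruits a phosphatase to Mdm2 and is a long-known p53 target. Ccng1 ranged from 10.66 to 11.42 over the 6 PBAB arrays, against 10.33 to 11.32 over the 6 HA arrays and 8.92 to 9.33 over the 3 arrays of APC alone. The 2 activations overlapped and their averaged difference was 0.22 ± 0.12 (adjusted p = 0.208). Mdm2 ranged from 9.23 to 9.80 in PBAB arrays, against 9.11 to 9.83 in HA arrays and 7.51 to 8.56 in APC alone. Its averaged difference was 0.17 ± 0.11 (adjusted p = 0.293), and the largest within a lineage was 0.41 ± 0.19 in Th17 cultures (adjusted p = 0.171). Neither Ccng1 nor Mdm2 was called between PBAB and HA in any lineage, and the further probe sets above 5.07 gave averaged differences of 0.31 and 0.17 for Ccng1 and 0.15 for Mdm2, none called.

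Of the genes that promote cell death, Bbc3 was the most uniform. Its product PUMA binds and neutralises the survival proteins of the BCL2 family. In Th1 cultures Bbc3 stood at 8.72 and 8.33 under PBAB, against 7.31 and 7.23 under HA and 7.66 in APC alone. In Th9 cultures Bbc3 stood at 8.84 and 8.29 under PBAB, against 6.56 and 6.41 under HA and 7.74 in APC alone. In Th17 cultures Bbc3 stood at 8.37 and 7.94 under PBAB, against 6.72 and 7.03 under HA and 6.90 in APC alone. The lowest PBAB array, at 7.94, was above the highest HA array, at 7.31. The averaged difference was 1.54 ± 0.13 (2.91-fold, adjusted p = 2.12e-05). It was 2.08 ± 0.23 in Th9 (4.24-fold, adjusted p = 0.000422), 1.28 ± 0.23 in Th17 (adjusted p = 0.00419) and 1.26 ± 0.23 in Th1 cultures (adjusted p = 0.00519). These calls held without any 1 of the 12 activated arrays.

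Perp, a membrane protein of the PMP-22 family required for full p53-dependent death in some cell types and for cell adhesion in skin, had the widest range of the set. In Th1 cultures Perp stood at 10.33 and 10.41 under PBAB, against 7.47 and 7.24 under HA and 5.78 in APC alone. In Th9 cultures Perp stood at 7.40 and 7.49 under PBAB, against 5.83 and 5.59 under HA and 5.24 in APC alone. In Th17 cultures Perp stood at 7.04 and 7.22 under PBAB, against 6.37 and 6.40 under HA and 6.09 in APC alone. In order of level, Th1 PBAB cultures came first and apart, and then Th9 PBAB, Th1 HA and Th17 PBAB cultures close together, with Th9 PBAB and Th1 HA arrays overlapping. The difference between activations was 3.01 ± 0.16 in Th1 (8.08-fold, adjusted p = 5.24e-06), 1.74 ± 0.16 in Th9 (3.33-fold, adjusted p = 0.000128) and 0.74 ± 0.16 in Th17 cultures (1.67-fold, adjusted p = 0.0101). Averaged over lineages Perp rose by 1.83 ± 0.09 (adjusted p = 9.07e-07). The Th17 call was lost without the second Th17 PBAB array (0.65, adjusted p = 0.078) or the second Th17 HA array (0.76, adjusted p = 0.0563).

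Pmaip1, whose product NOXA antagonises the survival protein MCL1, was called in Th9 cultures alone, and its response differed in size between lineages (interaction F = 28.0, adjusted p = 0.00746). In Th9 cultures Pmaip1 stood at 9.72 and 10.09 under PBAB, against 8.42 and 7.55 under HA and 6.25 in APC alone. In Th1 cultures Pmaip1 stood at 9.71 and 9.92 under PBAB, against 10.33 and 10.37 under HA and 5.29 in APC alone. In Th17 cultures Pmaip1 stood at 9.05 and 9.32 under PBAB, against 9.77 and 9.52 under HA and 5.96 in APC alone. Both Th9 HA arrays were below all other activated arrays. Th9 HA cultures got 1 µg/ml HEL and the other HA cultures 2 µg/ml, so that lineage and HEL dose cannot be told apart here. The difference was 1.92 ± 0.26 in Th9 (3.78-fold, adjusted p = 0.00123), -0.54 ± 0.26 in Th1 (adjusted p = 0.223) and -0.46 ± 0.26 in Th17 cultures (adjusted p = 0.307). Averaged over lineages it was 0.31 ± 0.15 (adjusted p = 0.17), 0.45 (adjusted p = 0.0178) without the first Th9 HA array and 0.16 (adjusted p = 0.354) without the second.

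Aen encodes a nuclease that enhances apoptosis. In Th9 cultures Aen stood at 9.33 and 9.41 under PBAB, against 8.27 and 8.20 under HA and 8.54 in APC alone. In Th1 cultures Aen stood at 9.38 and 9.51 under PBAB, against 8.82 and 8.47 under HA and 8.15 in APC alone. In Th17 cultures Aen stood at 8.98 and 9.39 under PBAB, against 8.82 and 9.11 under HA and 8.06 in APC alone. The activations were apart in Th9 and Th1 and overlapped in Th17 cultures. Differences were 1.14 ± 0.19 in Th9 (adjusted p = 0.00381), 0.80 ± 0.19 in Th1 (adjusted p = 0.0202) and 0.22 ± 0.19 in Th17 cultures (adjusted p = 0.544), with an average of 0.72 ± 0.11 (adjusted p = 0.000707). The Th1 call was lost without the first (0.87, adjusted p = 0.0642) or the second Th1 PBAB array (0.73, adjusted p = 0.122) and without the second Th1 HA array (0.62, adjusted p = 0.156). Of 3 further Aen probe sets, 1 was called in the average (0.69, adjusted p = 0.00434) and 1 dimmer one was not (0.31, adjusted p = 0.104). The last lay below 5.07 in all 15 arrays, where signal is not told from background, and bears on nothing here.

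The remaining pair moved less. Phlda3, which competes with the kinase Akt for membrane lipids and so restrains survival signalling, ranged from 8.08 to 8.73 in PBAB arrays, against 7.44 to 8.44 in HA arrays and 7.73 to 8.22 in APC alone. The averaged difference of Phlda3 was 0.54 ± 0.13 (adjusted p = 0.00792), and it was called in no single lineage. With replicate number as a block, Phlda3 was called in Th9 (0.69, adjusted p = 0.0267) and Th1 cultures (0.60, adjusted p = 0.0453), where the fit without it gave an adjusted p = 0.0659 and 0.101. The block also called more of all genes within each lineage, by the counts given at the end. Calls gained with it cannot be read as particular to the members. In Th1 cultures Phlda3 was at 0.91 (adjusted p = 0.0295) without the first Th1 HA array and at 0.29 (adjusted p = 0.528) without the second. Without either of them the Th9 difference of Phlda3 passed the threshold (0.69, adjusted p = 0.0345).

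Trp53inp1, a stress-induced nuclear protein that works with p53 and in autophagy, ranged from 10.65 to 11.86 in PBAB arrays, against 10.32 to 11.29 in HA arrays and 9.55 to 9.97 in APC alone. Its averaged difference was 0.51 ± 0.14 (adjusted p = 0.0202) and that in Th9 cultures 0.93 ± 0.25 (adjusted p = 0.0296). Differences were 0.57 ± 0.25 in Th17 (adjusted p = 0.153, or 0.0179 with replicate number as a block) and 0.01 ± 0.25 in Th1 cultures (adjusted p = 0.985). The averaged call was lost on leaving out any 1 of 5 arrays, namely the second Th1 PBAB (0.43), first Th1 HA (0.41), first Th9 HA (0.41), second Th17 PBAB (0.48) or first Th17 HA array (0.48), with adjusted p = 0.0522 to 0.0596. The Th9 call of Trp53inp1 was lost without the first (0.95, adjusted p = 0.112) or second Th9 PBAB array (0.92, adjusted p = 0.122) or the first Th9 HA array (0.66, adjusted p = 0.184).

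RNA of cells other than T cells differed between the activations, and its part in these results was not tested. The mean level of 10 macrophage markers was 4.98 to 5.60 in PBAB arrays, against 5.10 to 7.19 in HA arrays and 9.94 to 10.61 in APC alone. Among HA arrays the same mean was 5.10 to 5.18 in Th1, 5.88 to 6.34 in Th9 and 6.71 to 7.19 in Th17 cultures, and in Th1 PBAB arrays it was 5.12 to 5.60. Lysozyme M, encoded by Lyz2, stood at 10.34 and 10.84 in Th17 HA arrays and at 13.55 to 13.85 in APC alone. Single macrophage markers did not all follow their mean. Cd68 was higher under PBAB in Th1 (8.53 and 8.91, against 7.23 and 6.09 under HA) and Th9 cultures (8.07 and 8.88, against 7.20 and 6.74). In Th17 cultures Cd68 was lower under PBAB (6.96 and 7.31, against 7.41 and 7.97). Means of 7 T cell markers were 10.96 to 11.29 in PBAB arrays, against 10.45 to 11.24 in HA arrays and 6.77 to 8.14 in APC alone, whose source is labelled CD4 T cells. For 7 B cell markers the means were 4.85 to 5.25, against 4.81 to 5.27 and 6.54 to 6.77. Single T cell markers went both ways between the activations. In Th17 cultures Cd5 stood at 11.92 and 11.48 under PBAB, against 9.53 and 9.12 under HA. Cd3g there stood at 10.82 and 11.09 under PBAB, against 11.86 and 11.60 under HA. In such bulk RNA, fewer cells of a type and less RNA per cell cannot be told apart. The 4 measured markers of NK and CD8 cells averaged 5.46 to 7.39 in PBAB arrays, against 6.49 to 7.96 in HA arrays, and Cd8a was 1.68 ± 0.53 lower in PBAB (-1.68, adjusted p = 0.035).

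Whether the response to activation differed between lineages was tested as an interaction. Because Th9 HA cultures got less HEL than the other HA cultures, lineage and HEL dose cannot be told apart wherever Th9 cultures enter. It was called for 2 of the 9 genes, Perp (F = 51.1, adjusted p = 0.00173) and Pmaip1 (F = 28.0, adjusted p = 0.00746), where 4.19% of all genes were called. Cdkn1a (F = 9.48, adjusted p = 0.0764), Aen (F = 5.74, adjusted p = 0.182), Bbc3 (F = 4.07, adjusted p = 0.287) and Trp53inp1 (F = 3.60, adjusted p = 0.329) did not pass. With replicate number as a block, Cdkn1a (F = 11.7, adjusted p = 0.0218) and Trp53inp1 (F = 8.76, adjusted p = 0.0414) passed as well. More of all genes also passed the F test with the block, as counted at the end, so this gain cannot be read as particular to the members.

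For Perp the response in Th1 cultures exceeded that in Th17 cultures by 2.27 ± 0.23 (adjusted p = 0.00121; 3.53% of all genes called in either direction) and that in Th9 cultures by 1.28 ± 0.23 (adjusted p = 0.0207; 1.37% called). The response of Perp in Th9 exceeded that in Th17 cultures by 1.00 ± 0.23, with an adjusted p = 0.0542 (1.71% of all genes called), or 0.0135 with replicate number as a block. That block also brought past the threshold the lower response of Trp53inp1 in Th1 than in Th9 cultures (-0.93, adjusted p = 0.0411, or 0.322 without the block) and the higher response of Aen in Th9 than in Th17 cultures (0.92, adjusted p = 0.0417, or 0.127 without it). Again the block called more of all genes in these comparisons, as counted at the end. The Th1 against Th9 call of Perp was lost without either Th1 PBAB array (1.32 and 1.24), the second Th1 HA array (1.16), either Th9 PBAB array (1.23 and 1.32) or the first Th9 HA array (1.16), with adjusted p = 0.0653 to 0.0902. Pmaip1 responded less in Th1 than in Th9 cultures, by -2.46 ± 0.37 (adjusted p = 0.011), and more in Th9 than in Th17 cultures, by 2.38 ± 0.37 (adjusted p = 0.0149). The Th1 against Th9 call was lost without the first Th1 PBAB (-2.35, adjusted p = 0.0511) or the second Th9 PBAB array (-2.28, adjusted p = 0.0519), and the Th9 against Th17 call without the first Th17 PBAB (2.24, adjusted p = 0.0633) or the second Th17 HA array (2.50, adjusted p = 0.0505). For Cdkn1a the response in Th1 was below that in Th17 cultures by -1.77 ± 0.42 (adjusted p = 0.0467), a call lost on leaving out any 1 of 11 of the 12 activated arrays, the first Th17 PBAB array being the exception (-1.41 to -2.04, adjusted p = 0.0503 to 0.168). It was also lost with the second Cdkn1a probe set (-1.63, adjusted p = 0.31) and with the mean of the probe sets (-1.70, adjusted p = 0.0858).

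The lineages were then compared within each activation. Under PBAB, Perp was the only member called between lineages. It was higher in Th1 than in Th9 cultures by 2.92 ± 0.16 (7.58-fold, adjusted p = 9.47e-06; 0.903% of all genes called higher) and higher in Th1 than in Th17 cultures by 3.24 ± 0.16 (9.47-fold, adjusted p = 2.56e-06; 3.13% called higher). Between Th9 and Th17 cultures under PBAB, limma called 0 members, with 1 at an unadjusted p under 0.05, Pmaip1 at 0.72 ± 0.26 (adjusted p = 0.165), where 6.37% of all genes were called. Cdkn1a, Bbc3 and Aen were close across lineages under PBAB, with differences of -0.33 to 0.41, none called. With replicate number as a block, Trp53inp1 was called lower in Th1 than in Th9 (-0.65, adjusted p = 0.0371) and in Th17 cultures (-0.90, adjusted p = 0.00303), and Ccng1 higher in Th1 than in Th17 cultures (0.61, adjusted p = 0.0271). Here too the block called more of all genes, as counted at the end. Without the block Trp53inp1 in Th1 against Th17 cultures gave an adjusted p = 0.0559, which was 0.0448 without any 1 of the Th1 HA or Th9 HA arrays.

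Under HA more members differed between lineages. With HEL at 1 µg/ml in Th9 and 2 µg/ml in the other HA cultures, lineage and dose cannot be told apart in comparisons with Th9. Th1 cultures exceeded Th9 cultures in Pmaip1 by 2.37 ± 0.26 (5.16-fold, adjusted p = 0.00041), in Perp by 1.64 ± 0.16 (adjusted p = 0.000167) and in Cdkn1a by 1.25 ± 0.30 (adjusted p = 0.035), where 3.43% of all genes were called higher. Th1 cultures exceeded Th17 cultures in Cdkn1a by 1.44 ± 0.30 (2.72-fold, adjusted p = 0.0142) and in Perp by 0.97 ± 0.16 (adjusted p = 0.00409), where 3.87% of all genes were called higher. Neither Cdkn1a call held in its second probe set. That gave 1.01 in Th1 against Th9 (adjusted p = 0.412) and 1.18 in Th1 against Th17 cultures (adjusted p = 0.263). Th9 cultures were below Th17 cultures in Pmaip1 by -1.66 ± 0.26 (adjusted p = 0.00553) and in Perp by -0.68 ± 0.16 (adjusted p = 0.0386), where 2.61% of all genes were called lower. Of the 9 genes, Th1 HA cultures had the highest HA mean in 7, the exceptions being Aen and Trp53inp1. Among those 7, Bbc3, Ccng1, Mdm2 and Phlda3 had no call between lineages under HA in the fit without replicate number as a block. The share of all genes with their highest HA mean in Th1 cultures was not counted, so the 7 cannot be read as a trait of these genes.

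Some of the HA calls were lost on leaving out 1 array, in part also where that array was in neither group compared. Each such fit also has fewer residual degrees of freedom, so a lost call does not by itself show that it rested on that array. Cdkn1a in Th1 against Th9 cultures was lost without the first Th1 HA (0.98, adjusted p = 0.224), first Th9 HA (1.41, adjusted p = 0.0812) or second Th9 HA array (1.09, adjusted p = 0.218). The same call was lost with the mean of the probe sets (1.13, adjusted p = 0.102), quantile normalization (1.16, adjusted p = 0.0524), array weights (1.25, adjusted p = 0.0531) and only the arrays compared (1.25, adjusted p = 0.0753). Cdkn1a in Th1 against Th17 cultures was lost without the first Th1 HA (1.17, adjusted p = 0.112) or the first Th17 HA array (1.29, adjusted p = 0.0915). Perp in Th9 against Th17 cultures under HA kept its call only without either Th1 HA array and was lost on leaving out any 1 of the other 10 (-0.56 to -0.80, adjusted p = 0.0546 to 0.231). Ccng1, at 0.62 higher in Th1 than in Th17 HA cultures (adjusted p = 0.11), was called without the second Th17 HA array (0.90, adjusted p = 0.0456). With replicate number as a block, 4 more differences under HA were called: Bbc3 in Th1 against Th9 (0.78, adjusted p = 0.0208), Ccng1 in Th1 against Th17 (0.62, adjusted p = 0.0265), and Aen (-0.73, adjusted p = 0.0202) and Trp53inp1 (-0.61, adjusted p = 0.0303) in Th9 against Th17 cultures. Among all genes the block also raised the number called in these comparisons, as counted at the end. The 4 cannot be read as particular to the members.

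Among all genes tested, those whose means over the 6 activated groups ran most like a member's were found by the root mean square difference of centred means, for members whose means spanned over 2 units. Perp, with a span of 4.66, was nearest to Nrn1 (0.44), Acsl6 (0.46) and Il3 (0.48). Bbc3, with a span of 2.08, was nearest to Ints12 (0.10), Slc3a2 (0.11) and Zfp983 (0.11). Pmaip1, with a span of 2.37, was nearest to Sema7a (0.31), Myc (0.36) and Dock9 (0.37).

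Other genes of the network did not share 1 direction. Of 22 other p53 targets, 21 were tested, and 7 rose, 4 fell and 10 were not called in PBAB relative to HA on average, with a median of 0.16. In that comparison 13.2% of all genes were higher and 17.3% lower, so that the 4 lower are near the share of all genes. The 4 with the smallest p all rose. Gadd45a, a stress sensor in growth arrest and DNA repair, rose by 1.66 ± 0.12 (3.17-fold, adjusted p = 7.22e-06). Plk2, a polo-like kinase, rose by 1.74 ± 0.24 (adjusted p = 0.000368). Ercc5, a nuclease of nucleotide excision repair, rose by 0.85 ± 0.11 (adjusted p = 0.000195), and Sesn2, a stress-induced inhibitor of mTORC1 signalling, by 0.84 ± 0.10 (adjusted p = 0.000112). Gadd45a was called in each lineage, at 1.44 ± 0.21 in Th1, 1.97 ± 0.21 in Th9 and 1.58 ± 0.21 in Th17 cultures. Within lineages, 3, 6 and 5 of these 21 targets rose in Th1, Th9 and Th17 cultures, and 3, 2 and 0 fell. Of all genes, 5.22%, 7.39% and 6.66% were higher and 9.4%, 6.32% and 10.4% lower, in the same order. In Th17 cultures 5 of the 21 were lower at an unadjusted p under 0.05 in limma.

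Of a list of 14 genes, made up of Trp53 and regulators of p53, 11 regulators were tested, and 2 rose, 3 fell and 6 were not called, with a median of 0.07. These shares are near those of all genes, 13.2% higher and 17.3% lower. Mdm4, the Mdm2 relative that masks the activation domain of p53, rose by 0.94 ± 0.11 (adjusted p = 0.000156). Atr, the kinase that answers replication stress, rose by 0.97 ± 0.17 (adjusted p = 0.00144). Its effector kinase Chek1 fell by 0.82 on the log2 scale (-0.82 ± 0.14, adjusted p = 0.00145), and Hipk2, a kinase that phosphorylates p53, by 0.96 (-0.96 ± 0.10, adjusted p = 5.44e-05).

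Within the BCL2 family, the death-promoting genes outside the p53 target set did not move with Bbc3. For the counts that follow, 13.2% of all genes were higher and 17.3% lower in the same averaged comparison. Of the 8, limma called 0 higher (1 at an unadjusted p under 0.05) and 2 lower, Bik (-0.46 ± 0.11, adjusted p = 0.0107) and Bak1 (-0.66 ± 0.20, adjusted p = 0.0289), with Bcl2l11, which encodes the BH3-only protein BIM, at -0.65 ± 0.24 (adjusted p = 0.0656). Of 7 survival genes 4 were tested, and 2 rose: Bcl2l2, which encodes BCL-W, by 0.91 ± 0.14 (adjusted p = 0.000768) and Bcl2l1, which encodes BCL-XL, by 0.93 ± 0.29 (adjusted p = 0.0321). Mcl1 and Bcl2 were at -0.10 ± 0.10 and 0.09 ± 0.10, neither called.

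Among 5 measured CDK inhibitors other than Cdkn1a, 1 rose and 2 fell, where 13.2% of all genes were higher and 17.3% lower. Cdkn1b, which encodes p27, rose by 0.66 ± 0.22 (adjusted p = 0.0421), while Cdkn2c (-1.22 ± 0.14, adjusted p = 8.87e-05) and Cdkn2b (-0.72 ± 0.14, adjusted p = 0.00269), both inhibitors of CDK4 and CDK6, were lower in PBAB. Among activated arrays, however, Cdkn2b was above 5.07 only under HA in Th1 cultures, at 6.10 and 6.50. It stood at 4.12 to 4.74 in PBAB arrays and 4.35 to 4.85 in Th9 and Th17 HA arrays, where signal is not told from background. Its averaged fall therefore came from the Th1 HA arrays alone. Of 10 paralogues of the members, 2 rose (Mdm4 and Cdkn1b), 2 fell and 6 were not called, near the shares of all genes (13.2% higher and 17.3% lower). The paralogues that fell were Isg20, an exonuclease related to Aen (-2.16 ± 0.20, adjusted p = 2.78e-05), and Bak1, so that Isg20 and Aen moved in opposite directions.

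A further list holds cell cycle genes that, as background, p53 is known to lower indirectly through p21 and the DREAM repressor complex. Of its 14 genes 13 were tested, and all 13 fell in PBAB on average, where 17.3% of all genes were lower, with a median of -1.06. The survivin gene Birc5 had -2.11 ± 0.18 (adjusted p = 1.87e-05), the cyclin gene Ccna2 -1.34 ± 0.14 (adjusted p = 7.25e-05), the mitotic kinase gene Cdk1 -1.14 ± 0.14 (adjusted p = 0.000195) and the kinase gene Plk1 -1.26 ± 0.18 (adjusted p = 0.000391). The number called lower was 2 in Th1, 3 in Th9 and 11 in Th17 cultures, where 9.4%, 6.32% and 10.4% of all genes were lower, and list medians were -0.82, -0.76 and -1.71. The 2 of 13 in Th1 cultures are near the share of all genes. Birc5 was lower in each lineage, at -1.96 ± 0.31 in Th1, -1.70 ± 0.31 in Th9 and -2.67 ± 0.31 in Th17 cultures.

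**Figure D3:**
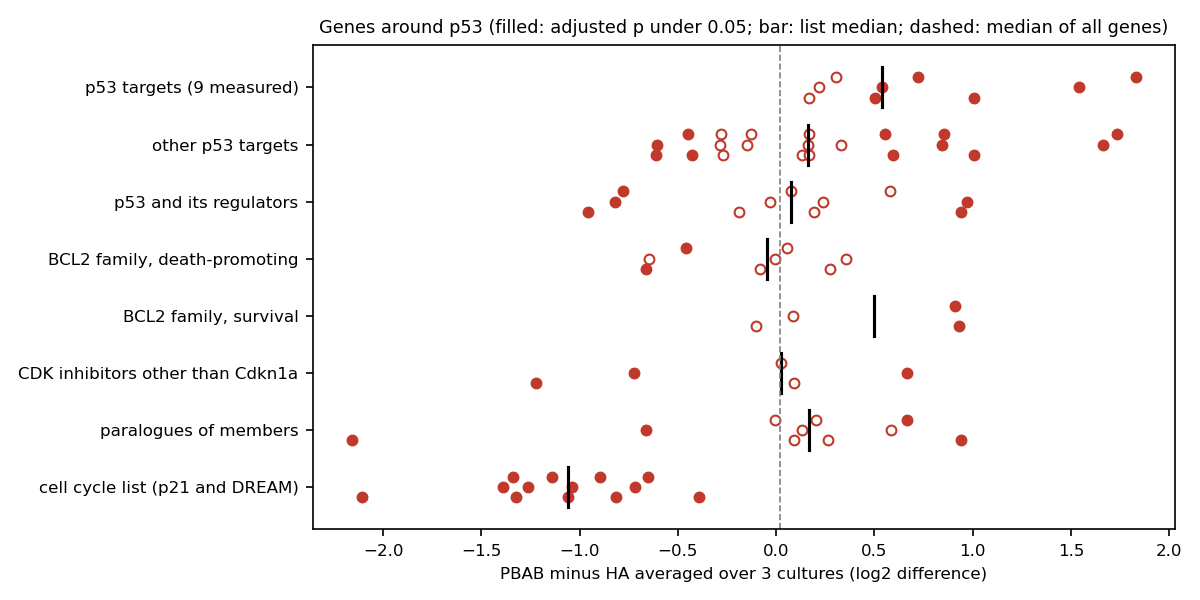
Difference between PBAB and HA averaged over the 3 cultures (x axis, log2 difference) for the genes of 8 lists around p53 (rows), with filled points called at an adjusted p under 0.05, short black bars at list medians and the dashed line at the median of all genes, 0.02. The 9 measured p53 targets lie between 0.17 and 1.83, other p53 targets lie on both sides of 0, and the 13 measured genes of the p21 and DREAM list lie between -2.11 and -0.39.

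Against APC alone, most members were higher in activated cultures as the values were deposited, but the direction of most depended on the scaling. The arrays of APC alone stood apart: they correlated with activated arrays at 0.614 to 0.727, where activated arrays of different groups correlated at 0.953 to 0.988. The interquartile range over all probe sets was 3.02 to 3.48 in PBAB arrays and 3.11 to 3.48 in HA arrays, against 2.02 to 2.09 in APC alone. The difference between the 3′ and 5′ actin probe sets, a sign of RNA integrity, was 0.12 to 0.28 in PBAB arrays and 0.05 to 0.11 in HA arrays, against 0.74 to 0.99 in APC alone. The part of these differences in the following values was not tested, except by the scalings given. The single array of APC alone in each lineage was assumed to vary like the other groups.

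In PBAB minus APC alone, 8 of the 9 genes were higher, where 48.7% of all genes were called higher and 41.1% lower, and the median of all genes was 0.31. Pmaip1 led with 3.80 ± 0.19 (14.0-fold, adjusted p = 9.17e-09), followed by Perp with 2.61 ± 0.11 (6.11-fold, adjusted p = 3.72e-09) and Cdkn1a with 1.98 ± 0.21 (adjusted p = 4.16e-06). Phlda3 was at 0.32 ± 0.16 (adjusted p = 0.07). In HA minus APC alone, 7 were higher and 1 lower, where 49.5% of all genes were called higher and 41.2% lower, and the median of all genes was 0.36. Pmaip1 again led, at 3.50 ± 0.19 (11.3-fold, adjusted p = 1.60e-08). Bbc3 was lower in HA, at -0.56 ± 0.16 (adjusted p = 0.00738), and Phlda3 was at -0.22 ± 0.16 (adjusted p = 0.203). Both comparisons share the 3 arrays of APC alone.

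When all arrays were brought to 1 distribution by a further quantile normalization, Pmaip1 and Perp were the only members called higher in either comparison. Under that scaling 2 were higher and 2 lower in PBAB minus APC alone, and 2 higher and 5 lower in HA minus APC alone. The shares of all genes called under it are not given here, so these counts cannot be read as a trait of the members. Aen turned to -0.58 and -1.28, Trp53inp1 to -0.28 and -0.85, and Ccng1 to -0.016 and -0.28 in PBAB and HA minus APC alone. In PBAB minus APC alone Bbc3 turned to -0.11 and Phlda3 to -1.16, and in HA minus APC alone Cdkn1a turned to -0.95 and Mdm2 to -0.19. Relative to the genes of the same array, Aen stood at percentiles 83.0 to 86.5 in PBAB cultures and 72.1 to 79.7 in HA cultures, against 88.8 to 93.5 in APC alone. Phlda3 stood at percentiles 70.8 to 78.8 in PBAB cultures and 63.9 to 69.9 in HA cultures, against 84.3 to 91.7 in APC alone.

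Leaving out an array of APC alone also took its lineage out of the average, so that only the other lineages were averaged. Changes in these values are therefore not those of a single array alone. Without the Th1 array of APC alone, Cdkn1a in HA minus APC alone was 0.36 (adjusted p = 0.21), Aen 0.30 (adjusted p = 0.116), Pmaip1 2.71 and, in PBAB minus APC alone, Perp 1.62. Without the Th9 array, Bbc3 in HA minus APC alone was -0.21 (adjusted p = 0.335), Pmaip1 4.38 and Phlda3 in PBAB minus APC alone 0.45 (adjusted p = 0.0429). Without the Th17 array, Aen in HA minus APC alone was 0.09 (adjusted p = 0.617) and Perp in PBAB minus APC alone 3.40. Aen in HA minus APC alone, at 0.36 ± 0.14 (adjusted p = 0.0271), was also lost without the first Th1 HA (0.30, adjusted p = 0.0642) or the second Th17 HA array (0.31, adjusted p = 0.0614). Phlda3 in PBAB minus APC alone was called without either Th1 HA array (0.32, adjusted p = 0.0364), and in HA minus APC alone without the first (-0.32, adjusted p = 0.0452).

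**Figure D4:**
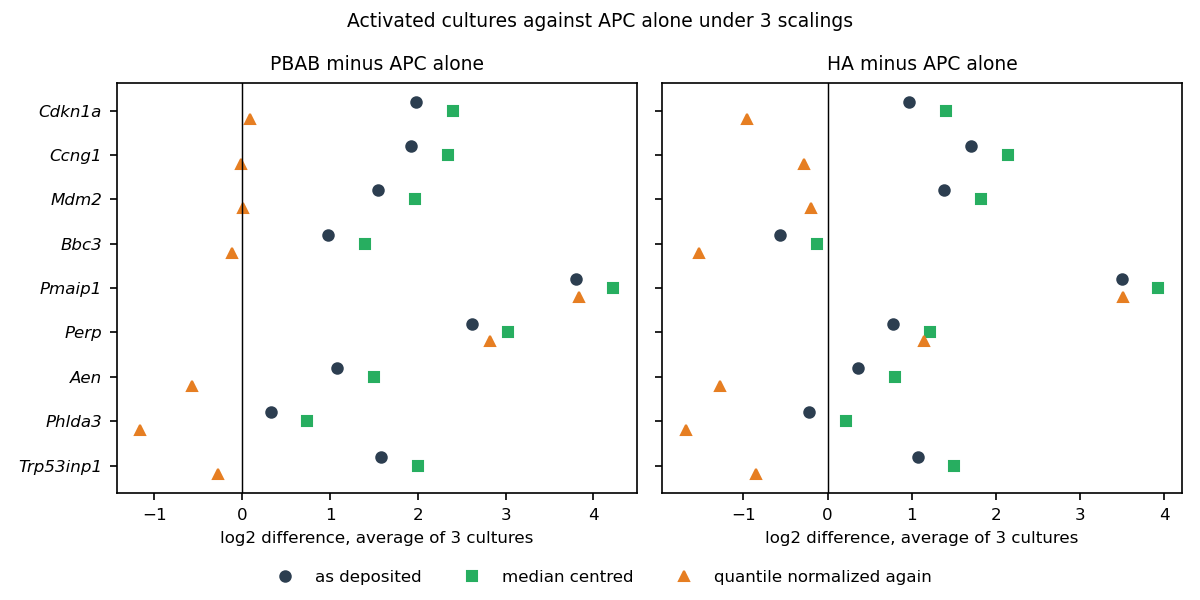
Differences from APC alone averaged over the 3 cultures (x axis, log2 difference) for the 9 genes, in PBAB (left) and HA (right), with values as deposited (circles), after centring each array on its median (squares) and after quantile normalization of the deposited values (triangles). The triangles of Pmaip1 and Perp stay right of 0 in both panels, while those of Aen fall at -0.58 and -1.28 and those of Phlda3 at -1.16 and -1.69.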

How the data were processed

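Expression was measured on 15 Affymetrix mouse arrays from 500 ng of total RNA each. The authors deposited log2 values for 45101 probe sets, made with RMA per the submitters' processing notes. RMA's version, the log base and any genome build are not given in the sources used here. The values run to 15.1, from which base 2 was read. They were used as deposited. Names came from GEO's 2016 annotation of the platform, in which 34958 probe sets had 1 symbol, 932 several and 9211 were unnamed here. A gene's brightest probe set (by mean over the 15 arrays) stood for it, and the gene was tested if above the 40th percentile (5.07) in at least 2 arrays. A level below it is not told from background.

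A limma fit (3.58.1, R 4.3.3) with 1 mean for each of 9 groups used all 15 arrays, with 6 residual and 4.38 prior degrees of freedom and Benjamini-Hochberg adjustment over 15498 genes. It was tested on simulated data. The number of arrays limits the precision. The members, the gene lists and the rules were chosen with earlier results of these data known. All members were named, and from other lists up to 4 genes with the smallest p in the averaged contrast. Likeness took the 3 nearest genes for each member whose group means spanned over 2 units.

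Arrays with the same replicate number deviated together from their group means, with correlations of 0.296 to 0.708 (median 0.484) over 15 pairs of groups, all above 0.1. The shared numbers come from the labels and were taken to mark pairs. A fit with that number as a block was set beside every comparison of activated groups. Other alternatives were the filter on low values, the mean of all probe sets, other probe sets, scalings, array weights, smaller sets of arrays and leaving out each array. The alternative with the 12 activated arrays fitted alone was chosen after seeing the data. Sequences are from RefSeq promoters, GRCm38.p6.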

Additional observations from a re-analysis of the deposited data

Results flagged for a closer look

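In 5 pairwise tests and 2 F tests the difference between PBAB and HA itself differed between lineages. Between Th1 and Th9 cultures it differed by 1.28 for Perp and by -2.46 for Pmaip1. Between Th1 and Th17 cultures it differed by 2.27 for Perp and by -1.77 for Cdkn1a. Between Th9 and Th17 cultures it differed by 2.38 for Pmaip1. The F statistics over all 3 lineages were 51.1 for Perp and 28.0 for Pmaip1. Perp was at 10.33 and 10.41 in Th1 PBAB arrays, against 7.47 and 7.24 in Th1 HA arrays, so the Th1 PBAB cultures stood apart. Pmaip1 was at 9.72 and 10.09 in Th9 PBAB arrays, against 8.42 and 7.55 in Th9 HA arrays, so the Th9 HA cultures stood apart. Those cultures also got less HEL than the other HA cultures, and lineage and dose cannot be told apart. No group had the 4 arrays needed for a test of single arrays far from the others.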

How the results depend on the processing

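Each of 144 results for a single member was recomputed under the alternatives that apply to it, and a value that changed sign while called in neither fit was counted as unmoved (22 such changes, and 43 on leaving out an array, none with a size over 0.58). With no filter on low values or one at the 60th percentile, all 144 kept their direction and side of the threshold, as did all 126 that the fit of the 12 activated arrays alone (chosen after seeing the data) could give. The replicate block brought 15 further results past the threshold, given beside those results, and changed no other call. It moved the members called from 2 to 4 in the F test, from 2 to 4 lower in Th9 minus Th17 under HA, from 0 to 1 lower in Th1 minus Th9 under PBAB, and in Th1 minus Th17 under PBAB from 1 to 2 higher and 0 to 1 lower. That last member, Trp53inp1, was the 1 also called lower with the mean of all probe sets, median centring, quantile normalization, array weights or only the arrays compared. Th9 minus Th17 under HA had 1 lower with array weights or only the arrays compared. Averaging probe sets ended 4 calls, of Aen in Th1 (0.50), Trp53inp1 in HA minus APC alone (0.11), the Cdkn1a response in Th1 minus Th17 (-1.70) and Cdkn1a in Th1 minus Th9 under HA (1.13). The cause was not tested for these.

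Against APC alone, quantile normalization gave 2 members higher and 2 lower for PBAB, and 2 higher and 5 lower for HA, with no share of all genes given beside them. Values that reversed in PBAB minus APC alone were -0.58 for Aen, -0.11 for Bbc3, -0.016 for Ccng1, -1.16 for Phlda3 and -0.28 for Trp53inp1. In HA minus APC alone they were -1.28 for Aen, -0.28 for Ccng1, -0.95 for Cdkn1a, -0.19 for Mdm2 and -0.85 for Trp53inp1. Dimmer probe sets gave values of the opposite sign, at -0.071 and -0.29 for Aen, -1.19 and -1.32 for Mdm2 and -0.54 and -0.85 for Trp53inp1 in PBAB and HA minus APC alone. Those of Aen in all arrays and of Mdm2 in all activated arrays lay below 5.07, where signal is not told from background, so their values show no reversal. Median centring, or leaving out the Th9 array of APC alone and with it the Th9 lineage, left 0 members lower in HA minus APC alone.

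Leaving out 1 array at a time gave 5 to 6 members higher in the averaged contrast, 2 to 4 in Th1, 4 to 7 in Th9 and 2 to 3 in Th17 cultures, and 2 in the F test throughout. It gave 0 to 1 lower in Th1 minus Th17 under PBAB, 1 to 3 higher in Th1 minus Th17 under HA, 1 to 2 lower in Th9 minus Th17 under HA, and 5 to 7 higher and 0 to 2 lower in HA minus APC alone.

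Counts over all genes moved more. The block called 4380 genes in Th1 (2266 without it), 4056 in Th9 (2126), 4709 in Th17 (2648) and 2316 in the F test (649). It called 739 (212), 1828 (547) and 1476 (265) in the differences of responses, in the order Th1 minus Th9, Th1 minus Th17 and Th9 minus Th17. In that order it called 861 (334), 2642 (1083) and 2351 (987) between lineages under PBAB and 1863 (827), 2373 (1069) and 1831 (739) under HA. Only the arrays compared gave 1279 genes in Th9, 162 in Th1 minus Th9 under PBAB, and 365, 556 and 310 under HA. Leaving out an array gave as few as 1078 in Th1, 1056 in Th9, 1214 in Th17 and 309 in the F test. Quantile normalization moved the split of higher against lower genes to 1122 and 1269 in Th1 (809 and 1457), and to 157 and 136 in the response of Th9 minus Th17 (171 and 94). The stricter filter gave 7448 and 3979 in PBAB minus APC alone (7553 and 6364) and 7553 and 3984 in HA minus APC alone (7668 and 6383).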
